A study of Mus musculus with 12 samples.

Results

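The mouse miRNA panel used to profile these samples carried 54 hairpins for which both arms, the 5p and the 3p miRNA, had a probe record of their own. The members were found by name. Single-name mouse records were kept if their stem occurred with both the suffix -5p and the suffix -3p, and stems from a fixed set of numbers belonging to repeat-rich, early embryonic or imprinted clusters were left out. Of 65 stems with both suffixes, 11 were left out in this way. The 54 hairpins gave 108 records, each with a single miRNA name, out of 566 mouse miRNA records and 652 records of all kinds. The mouse records named 577 miRNAs, the number the series text gives, since 9 of them stood for several miRNAs jointly.

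The panel was applied to Kupffer cells, the macrophages resident in the liver, of the mouse strain Balb/C. There were 12 pools of sorted cells, 3 taken before partial hepatectomy (surgical removal of part of the liver), 3 at day 1, 2 at day 3 and 4 at day 7. Each pool held cells of 5 animals per the labels, a number the series text marks with a question mark, and 100 ng of total RNA was labelled. The file analysed here defines the probes and holds 0 columns for a sample, so what follows describes sequences and gives no level of any miRNA in these cells. The panel is a fixed design without replicates, and no test was made.

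A miRNA gene is transcribed as a longer RNA that folds back on itself. Nuclear and cytoplasmic enzymes cut this hairpin to a short duplex of its arms, in which each strand ends in a short overhang at its 3′ end. One strand is usually kept in the silencing complex, and the strand whose 5′ end is less firmly paired tends to be preferred. The kept strand finds mRNAs mainly through its seed, the bases just behind its 5′ end, so the arms of a single hairpin can direct different mRNAs to silencing. Argonaute proteins, which hold the strand, favour some first bases over others, U in particular. A panel with separate probes for both arms can in principle read them apart.

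The hairpins below have known roles in blood cells, vessels or stroma, or are widely expressed, and show how different the arms of a hairpin are. Each target is printed 5′ to 3′ as in the library file, which writes T for U, with its seed, bases 2 to 8, in capitals. miR-142 is abundant in blood cells, miR-126 is a miRNA of endothelial cells, miR-199a is found in mesenchymal cells, miR-342 lies in the gene Evl, and miR-423 is widely expressed.
miR-142-5p: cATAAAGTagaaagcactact
miR-142-3p: tGTAGTGTttcctactttatgga
miR-126-3p: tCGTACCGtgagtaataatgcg
miR-199a-5p: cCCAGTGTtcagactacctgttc
miR-199a-3p: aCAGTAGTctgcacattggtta
miR-342-5p: aGGGGTGCtatctgtgattgag
miR-342-3p: tCTCACACagaaatcgcacccgt
miR-423-5p: tGAGGGGCagagagcgagacttt
miR-423-3p: aGCTCGGTctgaggcccctcagt
In miR-142 the 3p target was 23 bases long and the 5p target 21. The arms of miR-423 were both 23 bases long and differed in GC content, with 56.5% in the 5p arm and 65.2% in the 3p arm. No arm of the 54 hairpins had the seed of its partner arm (0 of 54).

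The position of both arms in their precursor is seen in the hairpins that RefSeq gives for the mouse build GRCm38.p6, printed here as RNA with the arms in capitals. They are shown for the blood and stromal hairpins. The hairpin of miR-142 lay at chr11:87756864-87756927 on the plus strand, outside any other gene of the RefSeq table. That of miR-342 lay at chr12:108658620-108658718 on the plus strand, inside Evl. miR-199a had 2 loci, and the copy shown, at chr9:21496495-21496564 on the minus strand, lay inside Dnm2, the gene of a dynamin.
miR-142 precursor: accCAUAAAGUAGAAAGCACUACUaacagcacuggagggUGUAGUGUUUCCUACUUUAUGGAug
miR-342 precursor: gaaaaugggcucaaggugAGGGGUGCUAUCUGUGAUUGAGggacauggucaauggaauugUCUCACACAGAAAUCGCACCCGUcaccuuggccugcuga
miR-199a precursor: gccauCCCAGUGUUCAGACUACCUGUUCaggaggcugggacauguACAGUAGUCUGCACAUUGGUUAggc
The arms of miR-142 were separated by 15 bases of loop, those of miR-342 by 20 and those of this copy of miR-199a by 17.

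Arms of a hairpin were close in length, where 66 of the 108 member arms had 22 bases. Whether they were closer than arms of different hairpins was not tested. The lengths were equal in 25 of 54 hairpins, and in 45 of 54 (83.3%) they were within 1 base. The 5p arm was longer in 18 hairpins and the 3p arm in 11, with a median difference of 0. Among 5p arms 29 of 54 were 22 bases long, the full range being 19 to 24. The 3p arms were more uniform in length, with 37 of 54 at 22 bases and a range of 20 to 23. All 4 targets of 24 bases were 5p arms, those of miR-125a, miR-362, miR-1933 and miR-1941. Of the 108 arms, 102 (94.4%) were 21 to 23 bases long, against 395 of the 458 other mouse records (86.2%).

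The ends of this range are shown because in these hairpins the arms are least alike in length.
miR-1941-5p: aGGGAGATgctggtacagaggctt
miR-1941-3p: cATCTTAGcagtatctcccat
miR-324-5p: cGCATCCCctagggcattggtgt
miR-324-3p: cCACTGCCccaggtgctgct
miR-764-5p: gGTGCTCAcatgtcctcct
miR-764-3p: aGGAGGCCatagtggcaactgt
In miR-1941 the 5p arm had 24 bases and the 3p arm 21. miR-324 likewise had a 5p arm longer by 3 bases, 23 against 20. miR-764, which lies inside the serotonin receptor gene Htr2c, ran the other way, with a 5p arm of 19 bases, the shortest of all member arms, and a 3p arm of 22.

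GC content of the arms moved together but was seldom equal. Across the 54 hairpins Pearson's r between the GC content of the 5p and of the 3p arm was 0.68 and Spearman's rho 0.70, where both points of a hairpin come from arms that pair with each other. Equal GC content was found in 3 hairpins, miR-345, miR-654 and miR-1894. The 3p arm was the richer in 30 hairpins and the 5p arm in 21, with a median difference, 5p minus 3p, of -1.84 percentage points. With no stems left out this median was -0.207 points. Without regard to sign the median difference was 8.51 points. In 18 hairpins the arms were within 5 points and in 14 they were more than 10 points apart. Median GC content was 47.6% over the 5p arms, 45.5% over the 3p arms and 47.8% over the 458 other mouse records.

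The hairpins at both ends of the GC difference are given next, since in them 1 arm is clearly richer in G and C than its partner.
miR-542-5p: cTCGGGGAtcatcatgtcacga
miR-542-3p: tGTGACAGattgataactgaaa
miR-369-5p: aGATCGACcgtgttatattcgc
miR-369-3p: aATAATACatggttgatcttt
miR-202-5p: tTCCTATGcatatacttcttt
miR-202-3p: aGAGGTATagcgcatgggaaga
miR-878-5p: tATCTAGTtggatgtcaagaca
miR-878-3p: gCATGACAccacactgggtaga
miR-542 had 54.5% GC in the 5p arm and 31.8% in the 3p arm, a difference of 22.7 points. In miR-369 the values were 45.5% and 23.8%. The order was turned in miR-202, with 28.6% in the 5p arm and a difference, 5p minus 3p, of -21.4 points, and in miR-878, with 36.4% and 54.5%. The lowest GC content of any member arm, and of any mouse target on the panel, was the 19.0% of miR-590-3p. The highest among members was the 77.3% of miR-615-5p, whose gene lies inside Hoxc5.

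T was the most frequent first base in both arms. T, which stands for U in the miRNA, came first in 24 of 54 5p arms (44.4%) and in 20 of 54 3p arms (37.0%). Taken by hairpin, T began both arms in 9, the 5p arm alone in 15, the 3p arm alone in 11 and neither in 19. G was the rarest first base, in 5 of the 5p and 8 of the 3p arms. C began 23 of the 108 arms (21.3%) and 61 of the 458 other mouse records (13.3%), whereas T began 44 (40.7%) and 211 (46.1%). For example, miR-142 begins with C in its 5p arm and with T in its 3p arm, and miR-876, printed further down, begins with T in both.

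The pairing strength at the start of each arm was approximated by the number of A and T among its first 4 bases. By this count the hairpins fell into groups of equal size. The 5p arm had more A and T at its start in 18 hairpins, the 3p arm in 18, and in 18 the counts were equal. The median was 2 of 4 bases in either arm, with a range of 0 to 4. The widest gaps, of 3 bases, were in miR-340 and miR-875 towards the 5p arm and in miR-590 towards the 3p arm. This count does not use the bases opposite, and which arm is kept in Kupffer cells was not measured.

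Few arms shared a seed. The 108 arms had 106 different seeds, and 12 arms in 12 hairpins (22.2% of hairpins) shared theirs with another mouse record. Of these, 6 were 5p arms and 6 were 3p arms, and no member hairpin had a shared seed in both arms. Counted over bases 2 to 7 instead, 20 arms in 18 hairpins shared a seed, in miR-362 and miR-501 with both arms. With no stems left out and bases 2 to 8, 5 of 65 hairpins did so with both arms. The share was 11.1% of member arms against 34.7% of the 458 other mouse records (159 records). This difference was not tested, and it depends on how the members were chosen. Large families such as let-7 carry no arm suffix on this panel, and the numbers left out by the rule include families with shared seeds. With no stems left out, 23 of 130 arms (17.7%) shared a seed. Among the other records without a left-out number the share was 32.1% (125 of 390). The 12 arms fell into 10 groups of equal seed, of which 3 held more than 1 record named by arm. In these 3 the arm names were all 5p or all 3p.

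The larger groups join a member arm to better known miRNAs. miR-34b-5p shared its seed with 5 records, miR-34a, miR-34c and miR-449a to miR-449c, of which miR-34a is known as a target of p53 and miR-449 as a miRNA of ciliated cells. miR-384-5p shared its own with the 5 records of miR-30a to miR-30e. miR-465a-5p shared its seed with the 5p arms of miR-465b and miR-465c, the only arm-named records of those hairpins. miR-125a-5p and miR-125b-5p shared a seed with each other and with miR-351. The targets are shown where they make the extent of likeness visible.
miR-34b-5p: aGGCAGTGtaattagctgattgt
miR-34a: tGGCAGTGtcttagctggttgt
miR-384-5p: tGTAAACAattcctaggcaatgt
miR-30a: tGTAAACAtcctcgactggaag
miR-125a-5p: tCCCTGAGaccctttaacctgtga
miR-125b-5p: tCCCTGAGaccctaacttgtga
miR-351: tCCCTGAGgagccctttgagcctg
miR-465a-5p: tATTTAGAatggcactgatgtga
miR-465b-5p: tATTTAGAatggtgctgatctg
miR-465c-5p: tATTTAGAatggcgctgatctg
Behind the seed the number of differences varied. Aligned at the first base and with no gaps, miR-384-5p differed from miR-30a at 10 of 22 bases, and miR-125a-5p from miR-351 at 14 of 24. In the same way miR-34b-5p differed from miR-34a at 11 of 22. In such a count an added or missing base shifts all bases behind it. High counts therefore cannot rank the pairs by likeness, and a comparison with gaps was not made. miR-34b-5p differed from miR-34c at 2 of 23 bases, A11G and T23C, counted from 1 at the 5′ end with the base of miR-34b-5p first. miR-465a-5p and miR-465c-5p also differed at 2 of 22, A14G and G20C.

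Groups of 2 records made up the remaining 6. They tied miR-590-5p to miR-21, a miRNA that is abundant in many tissues and tumours, miR-876-3p to miR-140, a miRNA of cartilage, and miR-362-3p to miR-329. They also tied miR-501-3p to miR-500 and miR-743b-3p to miR-743a. The last joined members alone, miR-883a-3p and miR-883b-3p.
miR-501-3p: aATGCACCcgggcaaggatttg
miR-500: aATGCACCtgggcaagggttca
miR-743b-3p: gAAAGACAtcatgctgaataga
miR-743a: gAAAGACAccaagctgagtaga
miR-362-3p: aACACACCtgttcaaggattca
miR-329: aACACACCcagctaaccttttt
miR-743b-3p differed from miR-743a at 3 of 22 bases (T9C, T12A and A18G) and miR-501-3p from miR-500 at 4 of 22. miR-362-3p and miR-329 differed at 10 of 22 bases in the ungapped comparison. The count for miR-590-5p and miR-21 was 14 of 22. miR-876-3p and miR-140 differed at 13 of 22 bases. By these ungapped counts the likeness of miR-362-3p, miR-590-5p and miR-876-3p to the partner was mostly in the seed. Likeness behind a shifted base would not be seen.

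There were 3 numbers with 2 member hairpins each, and none of these pairs kept the seed in both arms. In miR-883a and miR-883b, of an X-linked cluster known from testis, the 3p arms differed at 1 of 22 bases, G12T, and kept the seed. Their 5p arms differed at 13 of 22 bases in the ungapped comparison, 1 of them among bases 1 to 8, G2A. The printed 5p targets hold a common stretch behind the seed, displaced by 1 base, which adds to this count. It therefore does not show how alike the 5p arms are.
miR-883a-5p: tGCTGAGAgaagtagcagttac
miR-883b-5p: tACTGAGAatgggtagcagtca
miR-883a-3p: tAACTGCAacagctctcagtat
miR-883b-3p: tAACTGCAacatctctcagtat
miR-125a and miR-125b, relatives of the worm lin-4 miRNA, kept the seed in the 5p arm and not in the 3p arm, where 2 of the 4 differences, A3G and G7T, fell in it.
miR-125a-3p: aCAGGTGAggttcttgggagcc
miR-125b-3p: aCGGGTTAggctcttgggagct
Over the whole arm and without gaps, 7 of 22 bases differed between the 5p arms and 4 of 22 between the 3p arms. The 5p differences began at base 14, and miR-125a-5p is longer by 2 bases. This count therefore cannot rank the arms by likeness, and a comparison with gaps was not made. miR-450a and miR-450b kept the seed in neither arm, with 7 of 22 differences in the 5p arms and 5 of 22 in the 3p arms.
miR-450a-5p: tTTTGCGAtgtgttcctaatat
miR-450b-5p: tTTTGCAGtatgttcctgaata
miR-450a-3p: aTTGGGGAtgctttgcattcat
miR-450b-3p: aTTGGGAAcattttgcatgcat
The substitutions inside bases 1 to 8 were G7A and A8G in the 5p arms and G7A in the 3p arms, all at the end of the seed nearest the middle of the arm.

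Near neighbours on the panel were few. At most 2 mismatches from the 5′ end separated 4 of the 108 arms from their nearest mouse record, those of miR-34b-5p, miR-465a-5p, miR-883a-3p and miR-883b-3p. No hairpin had such a neighbour for both arms (0 of 54). For every member hairpin, then, at least 1 arm differed from all other mouse targets at 3 or more bases in this ungapped comparison.

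In the median hairpin the arms could be paired over most of the shorter arm. The best ungapped antiparallel alignment had a median of 15 paired bases, G-T wobble pairs included, with a range of 11 to 20. Relative to the shorter arm the median was 68.9%, with a range of 50% to 90.9%. Taking the best of all offsets raises such counts, and arms of different hairpins were not compared. With gaps allowed, in the duplexes predicted by ViennaRNA, the median was 16 pairs, with a range of 13 to 20. The predicted duplex energy ran from -31.5 kcal/mol in miR-615 to -12.7 kcal/mol in miR-434, with a median of -21.2. It was related to the mean GC content of the arms (Pearson's r of -0.59 over 54 hairpins), as the energy model itself weighs G-C pairs.

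Both ends of the range of ungapped pairing are printed, to show a nearly complete duplex beside one interrupted in the ungapped alignment.
miR-876-5p: tGGATTTCtctgtgaatcacta
miR-876-3p: tAGTGGTTtacaaagtaattca
miR-574-5p: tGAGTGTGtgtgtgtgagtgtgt
miR-574-3p: cACGCTCAtgcacacacccaca
miR-362-5p: aATCCTTGgaacctaggtgtgaat
miR-1839-5p: aAGGTAGAtagaacaggtcttg
miR-876 and miR-574 reached 20 pairs each. At the other end, miR-1839 had 11 pairs and miR-362, whose 3p arm is printed above, had 12 in the ungapped alignment. With gaps the count for miR-362 rose to 18, in miR-125a from 13 to 18 and in miR-1839 from 11 to 15. miR-362 and miR-125a were low by the ungapped count alone. miR-142, the blood cell hairpin, had 19 pairs by either measure.

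Overhangs in the alignment were mostly 1 to 3 bases long. The 3p arm extended past the start of the 5p arm by 2 bases in 28 of 54 hairpins, and by 1 to 3 bases in 43. The 5p arm extended past the start of the 3p arm by 2 bases in 14 and by 1 to 3 bases in 42. Where offsets tied in pairs, the search took the one nearest a 2-base overhang of the 3p arm. This favours that count at the 3p arm, and no such rule was used for the 5p arm. Both overhangs were exactly 2 in 11 hairpins, among them miR-125b, miR-423 and miR-615. Folding the RefSeq precursors gave a similar picture, but they hold the same arms and are no independent check. Over 47 precursors of 46 hairpins, the overhang was 2 bases in 27 at the base of the hairpin and in 13 at the loop. The precursors were 61 to 110 bases long with a median of 83, the arms were separated by a median of 14 bases (range 9 to 21), and in 0 of 47 did the arms overlap. The shortest loops, of 9 bases, were in miR-409 and miR-693.

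Most targets equalled an entry of the RefSeq table of GRCm38.p6. Of 108 arms, 91 were identical to the RefSeq mature miRNA of the same name, and 6 more were identical to one under another name, such as miR-142a-5p for miR-142-5p. Both arms were identical to an entry in 47 hairpins. For 9 arms the table gave no entry (miR-126-5p, miR-532-5p, miR-1839-3p and both arms of miR-151, miR-590 and miR-875). The remaining 2 arms were those of miR-582, and they shared their name but not their ends with the RefSeq form. They are shown in both forms because the ends decide the seed.
miR-582-5p, panel: tACAGTTGttcaaccagttact
miR-582-5p, RefSeq: aTACAGTTgttcaaccagttac
miR-582-3p, panel: cCTGTTGAacaactgaacccaa
miR-582-3p, RefSeq: tAACCTGTtgaacaactgaac
The RefSeq form of the 5p arm begins 1 base further upstream and that of the 3p arm 3 bases further upstream. The seed therefore differs between the forms in both arms. None of these 4 seeds occurred in any other mouse record of the panel. Aligned as printed on the panel, the arms of miR-582 left overhangs of 5 bases at both ends, the longest among the 54 hairpins at either end.

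Genes of the RefSeq table could be paired with 53 of the 54 hairpins, at 57 loci, since miR-125b, miR-129, miR-199a and miR-450a have 2 each. The X chromosome held 16 of the 57 loci (28.1%) and chromosome 12 held 8. Among the other miRNAs of the panel 54 of 461 loci (11.7%) were on the X and 56 (12.1%) on chromosome 12. The rule named some clusters to leave out, on chromosome 12 in particular, so these shares describe the choice as well as the panel.

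Neighbouring hairpins were mostly on the X. With 10 kb as the limit, 12 hairpins had another member next to them. miR-188, miR-362, miR-501 and miR-532 lay together inside Clcn5, the gene of a chloride transporter. miR-450a, miR-450b and miR-542 formed a second group, outside any other gene, and miR-743b, miR-883a and miR-883b formed another. Off the X, the group of miR-369 and miR-409 lay in Mirg, a long noncoding RNA of the imprinted Dlk1-Dio3 region, which also holds miR-434 and miR-673 inside Rtl1. The members miR-380 and miR-654 lay between miR-434 and miR-369 on chromosome 12, outside any other gene. The rule thus left this region out only in part.

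Of the 57 loci, 39 (68.4%) lay inside another gene, 32 of them inside a protein-coding one. This share was not computed for the other miRNAs of the panel, so it is not shown to be particular to these hairpins. The gene table gives no strand for the containing genes, so sense and antisense positions were not told apart. Several containing genes are well known. miR-126 lay inside Egfl7, an endothelial gene, miR-139 inside the phosphodiesterase gene Pde2a, and miR-151 inside Ptk2, which encodes focal adhesion kinase. The imprinted genes Mest and H19 held miR-335 and miR-675. miR-574 lay within the span of both Fam114a1 and Tlr6, the gene of a toll-like receptor of macrophages. miR-693 lay inside Xpo5, which encodes the exporter of miRNA precursors from the nucleus.

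By the lists of numbers drawn up for cell types and clusters, the members covered some groups and not others. The X-linked cluster around miR-188 had 4 of 6 entries with a member hairpin, and the X-linked testis cluster 4 of 12, with 5 hairpins. The blood and myeloid list had 3 of 9, namely miR-142, miR-342 and miR-450 with its 2 hairpins, although 8 of the 9 entries were on the panel in some form. A further X-linked group, around miR-424, had 2 of 5, miR-542 and again miR-450, so this list overlaps the blood and myeloid one. The stromal and stellate list had 1 of 6, miR-199a, and the vessel list its only entry, miR-126. The liver list had 0 of 4, although all 4 of its entries, miR-122 among them, were on the panel. For such miRNAs the panel gave no pair of -5p and -3p names, and 0 mouse records carried a star name, the older mark of the rarer arm.

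The accession numbers of the records, from the catalogue miRBase, were consecutive in 27 of 54 hairpins, and in all 27 the 5p arm had the lower number. In the other 27 the numbers were not consecutive, and the higher one belonged to the 3p arm in 17 and to the 5p arm in 10. The arm with the lower number began with T in 11 of these 27 hairpins and the arm with the higher number in 10. It shared its seed with another mouse record in 4, against 2 for the higher-numbered arm.

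Each arm was told from its partner by a barcode of 6 coloured spots. The barcodes of the arms of a hairpin differed at 2 to 6 spots, with a median of 4.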

How the data were processed

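Kupffer cell miRNA was measured on the nCounter mouse miRNA panel version 1.5, per the labels. The deposited file is that panel's reporter library, which per the file headers has 8 columns (class, target sequence, barcode, name, probe, species, accession and comment) and no other measured score or count. Depth per sample is unknown, and the planned comparison of the time groups on counts was not run. How the sample counts were made is not given in the sources used here.

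Names were cut at the vertical bar, and length, GC content, first base and seed (bases 2 to 8) were computed with Python 3.11.15. Seeds were compared over all 566 mouse records, and mismatches from the 5′ end without gaps. Pairing was the best ungapped antiparallel offset, with ViennaRNA 2.7.2 for duplexes and precursor folds. Sequences and genes were matched to RefSeq tables of GRCm38.p6 by name, synonym or identity, and targets were printed only where RefSeq holds an entry of that name or sequence. The pairing search, run with Watson-Crick pairs alone, recovered 200 of 200 simulated duplexes. These had few mismatches, no gaps and 2-base overhangs at both ends. They therefore do not test the search with wobble pairs or on interrupted duplexes. The members and lists were chosen with earlier results of these data known. Named are all members as needed. Sequences were chosen from a short list of names, the ends of the GC, length and pairing ranges and the largest seed groups. Further sequences (miR-582, miR-450a, miR-450b, miR-883a, miR-883b, the smaller seed groups, the seed partners and the precursors) were chosen after their values were seen.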

Additional observations from a re-analysis of the deposited data

How the results depend on the processing

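No paired analysis was possible because the library file gives no sample values. With a seed of bases 2 to 7, 20 member arms shared a seed in place of 12, and with seeds compared among member arms alone 4 did. With no stems dropped, an alternative added after seeing the data, 23 arms did. The median GC difference, 5p minus 3p, was -0.207 percentage points with no stems dropped and -1.52 with 1 hairpin per number, against -1.84, and kept its sign. Median pairs between the arms were 13 with Watson-Crick pairs alone and 16 with RNAduplex, against 15. Hairpins with an arm sharing a seed rose from 12 to 18 of 54 with bases 2 to 7. With no stems dropped they were 18 of 65. Each rise from 12 to 18 is 1.5 times. The other alternatives moved counts by less than 1.5 times and left the median length difference at 0. Matching RefSeq entries of any name, also added after seeing the data, gave 97 arms in place of 91. Without sample values, no alternative for the time groups was run, and depth sets no limit on these sequence measures.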
